A study of Homo sapiens with 6 samples.

Results

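This account covers 10 genes of epithelial cells in 2 human breast cancer cell lines: the splicing regulators ESRP1 and ESRP2, the transcription factor genes GRHL2, OVOL2 and ELF3, the membrane serine protease genes ST14 and PRSS8, their inhibitor genes SPINT1 and SPINT2, and the trafficking gene RAB25. They were chosen by name, and each matched 1 row of the deposited table of 61541 genes. Of 6 libraries, 3 came from the parental line MDA-MB-231, known as mesenchymal and triple-negative, and 3 from MDA-MB-231-D3H2LN (MDA231-LN), a subline known to have been taken from a mouse lymph node after spread of luciferase-labelled cells. The labels name no treatment, and both were grown in high-glucose DMEM with 10% fetal bovine serum. With 1 line of each kind, the lymph node origin, the reporter and the growth in mice cannot be told apart. The labels do not mention separate cultures; p-values therefore measure only the spread between these libraries, which may be technical.

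ESRP1 and ESRP2 are RNA-binding proteins that promote the epithelial choice of exons in transcripts such as FGFR2, CD44, CTNND1 and ENAH. GRHL2, OVOL2 and ELF3 are transcription factors of epithelia. GRHL2 activates genes of cell junctions, OVOL2 represses mesenchymal genes, and both are known to oppose ZEB1, a repressor of epithelial genes. Matriptase (ST14) and prostasin (PRSS8) are proteases anchored at the epithelial surface that are held in check by the Kunitz-type inhibitors encoded by SPINT1 and SPINT2. RAB25 is a small GTPase of the RAB11 family that directs recycling of membrane proteins.

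The libraries held 16461578 to 19171017 counted fragments. Levels are given as CPM, the usual count of a gene relative to the scaled size of its library, with ± as the SD over 3 libraries; log2 fold changes are MDA231-LN over parental with ± as the SE. A gene rose or fell where its edgeR quasi-likelihood test gave a Benjamini-Hochberg adjusted p under 0.05 over the 14176 genes tested. Identity markers were checked first. All 8 markers of MDA-MB-231 (VIM, CD44, EGFR, AXL, CAV1, ANXA1 and NT5E among them) had counts in both lines, summing to 4699 to 4924 CPM in the parental libraries and 6241 to 6526 CPM in MDA231-LN. Of 8 luminal markers, CDH1, which encodes E-cadherin, was at 0.212 ± 0.135 and 0.42 ± 0.0373 CPM, and the summed level of the 8 was 36.4 to 42.1 and 36.1 to 41 CPM, with PGR at 0 in MDA231-LN. GATA3 and EPCAM, which did not pass the test, made up most of that sum. Within it ESR1, the estrogen receptor gene, rose from 9 to 54 fragments (log2 fold change 2.40, and 4.64 without parental replicate 3), FOXA1 rose 14.3-fold, and ERBB3 fell 2.71-fold. Of 8 blood and endothelial markers, CD3E and HBB were among those at 0 throughout and the sum was 8.43 to 12.3 and 9.27 to 9.56 CPM, most of it PECAM1 (9.52 and 8.6 CPM).

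Of the 10 genes, 6 had enough counts to test: 3 rose (ESRP1, OVOL2 and SPINT1), 2 fell (ESRP2 and SPINT2) and ST14 did not pass. Over all tested genes 31.6% rose and 31.2% fell, 62.8% together, and 6 genes are too few to read their share of calls as apart from that background. The libraries of the lines did not overlap for these 5 genes, 3 higher and 2 lower in MDA231-LN, against 66.6% of all tested genes (33.8% higher and 32.8% lower). ESRP1 and OVOL2 passed the filter on low counts through the MDA231-LN libraries alone, so a call for either could only be a rise. ESR1, FOXA1, FGFR2, MYO5B and HGFAC, given in other passages, also passed through the MDA231-LN libraries alone. For them, too, a call could only be a rise. TMPRSS15 and RAB17 passed through the parental libraries alone, so a call for either could only be a fall. The counts of list genes that rose or fell include such genes. GRHL2, ELF3, RAB25 and PRSS8 were at or near 0 in both lines. The 10 genes thus did not share a direction.

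**Figure D1:**
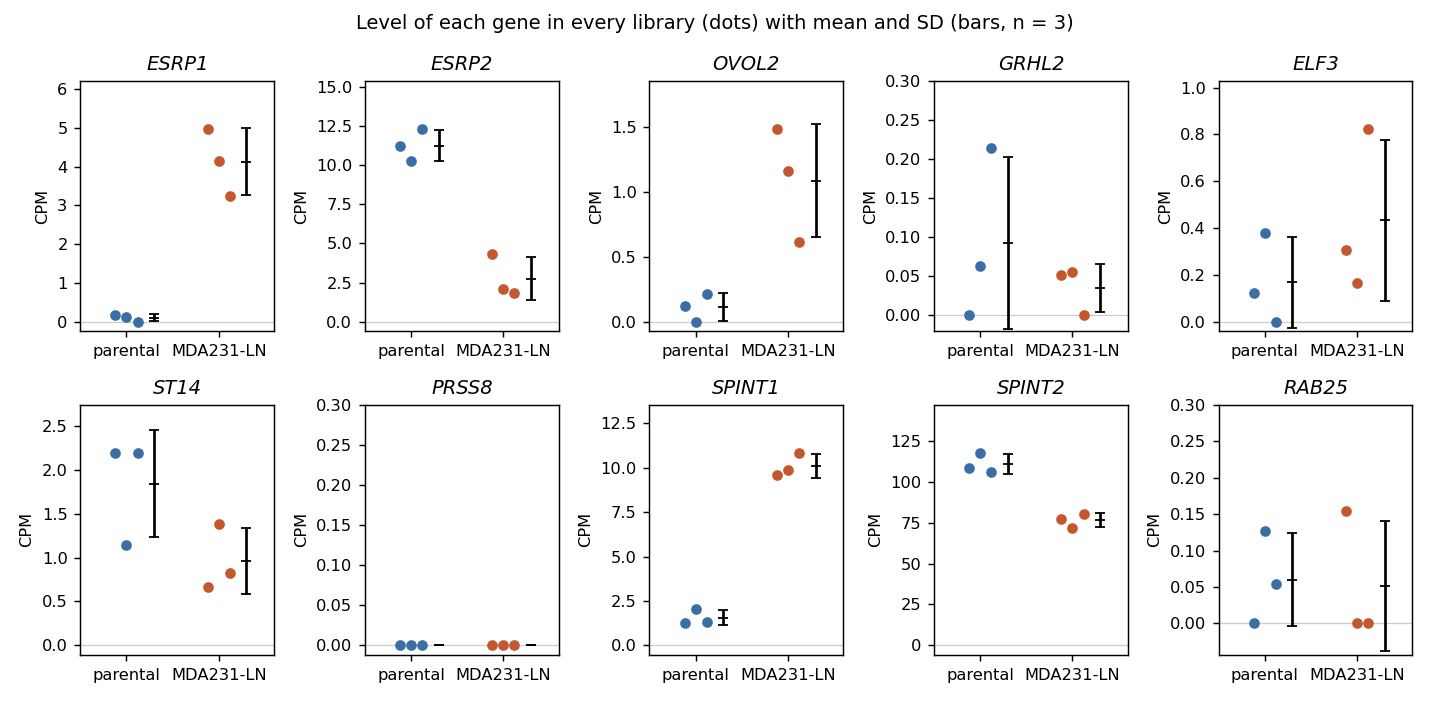
Level of each of the 10 genes in CPM (vertical axis, its own range in each panel) in every parental (blue) and MDA231-LN (orange) library, with bars for the mean and SD of 3 libraries. ESRP1, OVOL2 and SPINT1 are higher and ESRP2 and SPINT2 lower in all 3 MDA231-LN libraries, whereas ST14, GRHL2, ELF3 and RAB25 overlap and PRSS8 is at 0.

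The ESRP pair went in opposite directions. ESRP1 (ENSG00000104413, chromosome 8 from 94641074 to 94707466 of GRCh38, plus strand) had 3, 2 and 0 fragments in parental cells and 97, 75 and 63 in MDA231-LN, or 0.183, 0.127 and 0 against 4.97, 4.16 and 3.24 CPM. The gene was close to absent in the parental line, and every MDA231-LN library lay above every parental one. In bulk RNA, fewer cells with the transcript and less of it per cell cannot be told apart. The log2 fold change was 5.29 ± 0.52 (edgeR, Benjamini-Hochberg adjusted p = 1.5e-09). With 5 parental fragments in all, the ratio of counts was 41.9 with a 95% counting interval of 17.7 to 130. The size of the fold rests on those few fragments: the log2 fold change was 5.98 without parental replicate 1 and 4.66 without parental replicate 3.

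ESRP2 (ENSG00000103067, chromosome 16 from 68229033 to 68238102, minus strand) had 184, 162 and 230 fragments in parental cells and 85, 38 and 35 in MDA231-LN, or 11.2, 10.3 and 12.3 against 4.35, 2.11 and 1.8 CPM. The lines did not overlap, and within MDA231-LN replicate 1 stood above the other 2. ESRP2 fell 4.07-fold (log2 fold change -2.03 ± 0.23; edgeR, Benjamini-Hochberg adjusted p = 2.28e-08), and by 2.53 on the log2 scale without MDA231-LN replicate 1. Other genes cover 12.4% of the ESRP2 span, NFATC3 on the opposite strand among them, and counting ignored strand. NFATC3 was at 27.1 ± 2.7 and 23.2 ± 0.911 CPM and did not pass (edgeR, Benjamini-Hochberg adjusted p = 0.0541).

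Within each library the log2 ratio of ESRP1 to ESRP2 (CPM plus 0.1) was -5.32, -5.51 and -6.96 for parental cells, against 0.19, 0.95 and 0.81 for MDA231-LN. No library of one line came near those of the other. The difference of means was 6.58, with p = 0.1 by an exact two-sided permutation test, the smallest p that 3 against 3 libraries can give. Per kilobase of exon, ESRP1 made up 1.07 ± 0.954% of the pair in the parental line and 64.4 ± 6.82% in MDA231-LN. The counts include introns, and the ESRP1 span is 66393 bases against 9070 for ESRP2, so the share depends on the length used. Per kilobase of gene span, ESRP1 was at 0.0621 and ESRP2 at 0.304 CPM in MDA231-LN. Which of the pair was the more abundant in MDA231-LN is therefore not settled. The summed level of the pair was 11.4, 10.4 and 12.3 CPM in the parental libraries and 9.32, 6.26 and 5.04 CPM in MDA231-LN. It was lower in all 3 MDA231-LN libraries, by 4.49 CPM on average (exact two-sided permutation p = 0.1, again the smallest possible).

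**Figure D2:**
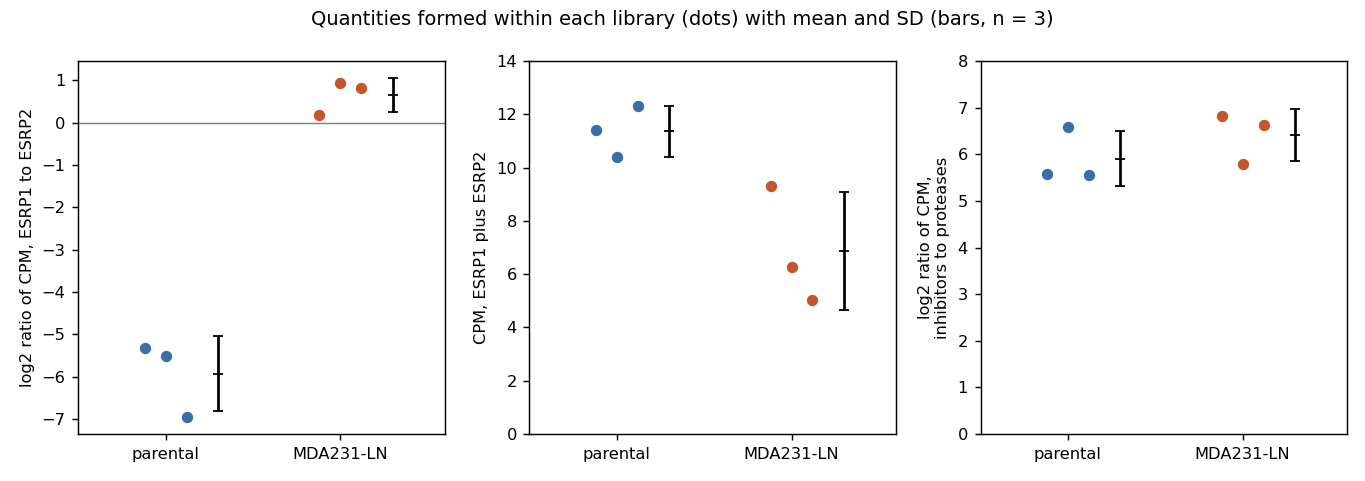
The 3 quantities formed within each library: the log2 ratio of ESRP1 to ESRP2 in CPM, the summed CPM of the pair, and the log2 ratio of the inhibitors (SPINT1 plus SPINT2) to the proteases (ST14 plus PRSS8) in CPM; dots are libraries and bars the mean and SD of 3. The ESRP ratio goes from below -5 to above 0, the sum is lower in MDA231-LN, and the inhibitor ratio overlaps between the lines. With PRSS8 at 0 in every library, the protease side is ST14 alone.

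Gene counts do not show exon choice, so for the transcripts that ESRP proteins are known to splice only total levels can be given. Of 19 such genes, all tested, 7 rose and 8 fell (31.6% and 31.2% of all tested genes did). The median log2 fold change was -0.074, against 0.017 over all tested genes. With upper-quartile scaling 9 rose and 6 fell. FGFR2, the fibroblast growth factor receptor whose mutually exclusive immunoglobulin-domain exons are a classical ESRP target, had 347 fragments in MDA231-LN. The parental line had 3, all in replicate 1, without which it was at 0; the count ratio was 103 (95% counting interval 35 to 503). FGFR3 rose from 1.18 ± 0.529 to 7.38 ± 0.879 CPM (log2 fold change 2.62 ± 0.28). LSR, a protein of tricellular junctions, rose from 24.4 ± 0.965 to 66.2 ± 0.363 CPM (1.44 ± 0.08). CD44, named after its value was seen, rose from 525 ± 8.58 to 994 ± 14.2 CPM. ENAH, also named after its value was seen, was at 76.1 ± 2.64 and 84.6 ± 3.12 CPM and rose by 0.15 on the log2 scale (edgeR, Benjamini-Hochberg adjusted p = 0.0421), a call lost under some alternatives (adjusted p up to 0.153).

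Of 25 other RNA-binding splicing regulators, 19 were tested. Of these, 8 rose and 2 (CELF1 and KHDRBS3, named after their values were seen) fell, with a median log2 fold change of 0.11. Of all tested genes 31.6% rose and 31.2% fell. With upper-quartile scaling 11 rose and 1 fell, and the KHDRBS3 call was lost under some alternatives (adjusted p up to 0.286). RBM47, which acts beside the ESRPs in epithelial splicing, rose 2.89-fold (2.13 ± 0.348 to 6.19 ± 0.986 CPM). RBFOX3, scarce in both lines, rose 3.46-fold (0.565 ± 0.107 to 1.99 ± 0.219 CPM). RBM38, an RNA-binding protein that stabilises transcripts, rose 1.53-fold (33 ± 3.85 to 50.4 ± 2.05 CPM), and PTBP2, a paralog of the polypyrimidine tract binding protein, 1.4-fold (17.6 ± 2.84 to 24.7 ± 3.55 CPM). QKI and RBFOX2, regulators of mesenchymal splicing named here after their values were seen, did not pass: QKI was at 212 ± 8.93 and 229 ± 8.69 CPM, and RBFOX2 at 225 ± 5.73 and 222 ± 1.93 CPM. NOVA2, also named after its value was seen, did not reach the filter; it had 0 parental and 55 MDA231-LN fragments, at least 16.4-fold higher against a floor of 3 fragments over the 3 libraries. SRSF1 and HNRNPA1 lie wholly inside other annotated genes and were not measured.

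Of the transcription factors, OVOL2 was the one that could be tested. OVOL2 (ENSG00000125850, chromosome 20 from 17956979 to 18059188, minus strand) had 2, 0 and 4 fragments in the parental line and 29, 21 and 12 in MDA231-LN, or 0.122, 0 and 0.214 against 1.49, 1.16 and 0.617 CPM. The lines did not overlap, though the gene stayed at a low level in both. It rose with a log2 fold change of 3.14 ± 0.70 (edgeR, Benjamini-Hochberg adjusted p = 0.000335), and the ratio of counts was 9.22 (4 to 26.1 as its 95% limits). Without parental replicate 3 the log2 fold change was 3.98. SNX5, which shares part of the OVOL2 span and was at 155 ± 4.94 and 180 ± 3.72 CPM, rose by 0.21 on the log2 scale; its part in the OVOL2 counts was not tested. Of OVOL2, 33.7% of the span but 2.71% of the exonic bases lie inside other genes.

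GRHL2 (ENSG00000083307, chromosome 8 from 101492439 to 101669726, plus strand) had 0, 1 and 4 parental fragments and 1, 1 and 0 in MDA231-LN. Its counts give a ratio of MDA231-LN to parental of 0.357 with a 95% counting interval of 0.034 to 2.18, so no difference was detectable at this depth. ELF3 (ENSG00000163435, chromosome 1 from 202007945 to 202017183, plus strand) had 2, 6 and 0 against 6, 3 and 16 fragments. The MDA231-LN libraries overlapped the parental ones, and replicate 3 held most of the MDA231-LN counts. The ELF3 count ratio was 2.79 with a 95% counting interval of 1.22 to 7.15 that leaves out the spread between libraries, and 66.1% of its exonic bases lie inside other genes, ELF3-AS1 among them, where fragments were not counted.

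Among 19 other epithelial transcription factors, 12 were tested. Of these, 5 rose and 3 fell (31.6% and 31.2% of all tested genes did), with a median log2 fold change of 0.24. With upper-quartile scaling 7 rose. TFCP2L1, a member of the grainyhead superfamily, rose 40-fold (0.553 ± 0.387 to 21.6 ± 2.51 CPM; log2 fold change 5.32 ± 0.26). FOXA1, the pioneer factor of luminal cells, rose 14.3-fold to a low level (0.179 ± 0.0677 to 2.63 ± 0.841 CPM), and TFAP2C rose 1.91-fold (30 ± 2.39 to 57.2 ± 0.764 CPM). EHF, an ETS factor close to ELF3, fell 1.98-fold (68.8 ± 3.78 to 34.9 ± 1.93 CPM). KLF4 and ELF1 also rose, and KLF5 and ELF4 fell, all 4 named after their values were seen; KLF4 lost its call under some alternatives (adjusted p up to 0.114). The GRHL and OVOL paralogs were low in both lines: GRHL1 was at 0.624 ± 0.157 and 1.25 ± 0.237 CPM and did not pass, while GRHL3, OVOL1 and OVOL3 had 8, 0 and 8 parental and 24, 3 and 45 MDA231-LN fragments and were not tested.

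Of 11 factors that drive the mesenchymal state or repress epithelial genes, 7 were tested. Among them 5 rose and 1 fell, with a median log2 fold change of 0.87. Of all tested genes 31.6% rose and 31.2% fell, and 7 genes are too few to read their share against that background. ZEB1, named after its value was seen, was the one that fell, from 126 ± 4.83 to 82.9 ± 4.28 CPM (-0.61 ± 0.06; edgeR, Benjamini-Hochberg adjusted p = 4.49e-09). Its paralog ZEB2 rose from 10.5 ± 2.09 to 19.3 ± 0.599 CPM (0.87 ± 0.13). SNAI1, the Snail repressor of E-cadherin, rose 10.9-fold (0.781 ± 0.28 to 8.45 ± 1.01 CPM), KLF8 4.64-fold (1.12 ± 0.2 to 5.22 ± 1.31 CPM) and TCF4 2.72-fold (4 ± 0.562 to 10.9 ± 0.65 CPM). TCF3, named after its value was seen, also rose, from 157 ± 11.6 to 221 ± 9.1 CPM, and SNAI2, at 33.6 ± 0.367 and 33.7 ± 3.63 CPM, did not pass.

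**Figure D3:**
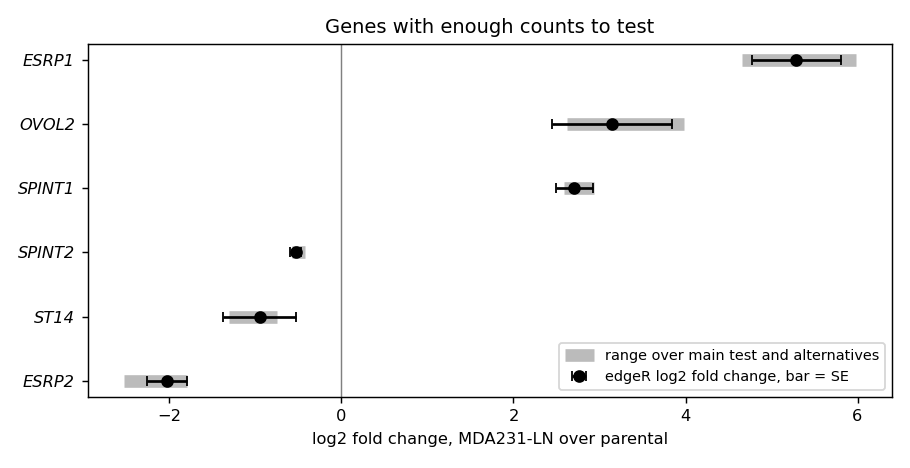
Log2 fold change (MDA231-LN over parental, horizontal axis) of the 6 tested genes from the edgeR test with its SE (black), over the range across that test and the alternatives (grey). ESRP1, OVOL2 and SPINT1 stay above 0 and SPINT2, ST14 and ESRP2 below 0 over the whole range.

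The proteases of the group were scarce in both lines. ST14 (ENSG00000149418, chromosome 11 from 130159782 to 130210362, plus strand) had 36, 18 and 41 fragments in parental cells and 13, 25 and 16 in MDA231-LN, or 2.19, 1.14 and 2.19 against 0.666, 1.39 and 0.822 CPM. Replicate 2 of the parental line lay below replicate 2 of MDA231-LN, so the groups overlapped. The ST14 log2 fold change of -0.95 ± 0.42 missed the threshold (edgeR, Benjamini-Hochberg adjusted p = 0.0523). It passed with a filter of 1 CPM in 3 libraries (adjusted p = 0.0402), with limma-voom (0.048) and without replicate 2 of the parental line (edgeR, 0.0216) or of MDA231-LN (0.0312), within a range of 0.0216 to 0.179 over the alternatives. PRSS8 (ENSG00000052344, chromosome 16 from 31131433 to 31135727, minus strand) had 0 fragments in all 6 libraries, which at a floor of 3 fragments over the libraries of a line allows up to 0.059 CPM for parental cells and 0.0526 for MDA231-LN.

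SPINT1 (ENSG00000166145, chromosome 15 from 40844018 to 40858207, plus strand) had 21, 32 and 25 fragments in the parental line and 187, 178 and 211 in MDA231-LN, or 1.28, 2.03 and 1.34 against 9.58, 9.87 and 10.8 CPM. The MDA231-LN libraries were tightly grouped and far above the parental ones. SPINT1 rose 6.54-fold (log2 fold change 2.71 ± 0.22; edgeR, Benjamini-Hochberg adjusted p = 4.36e-11). SPINT1-AS1, which overlaps it on the opposite strand, had 0 parental and 10 MDA231-LN fragments. SPINT2 (ENSG00000167642, chromosome 19 from 38244035 to 38292615, plus strand) was the most abundant of the 10 genes per kilobase of exon in both lines. It had 1784, 1858 and 1981 against 1506, 1300 and 1566 fragments, or 109, 118 and 106 against 77.1, 72.1 and 80.5 CPM. Again the lines did not overlap, but in the opposite direction to SPINT1: SPINT2 fell 1.45-fold (log2 fold change -0.53 ± 0.07; edgeR, Benjamini-Hochberg adjusted p = 9.81e-08). Of its exonic bases 62.1% lie inside other annotated genes, so its level was read from the rest.

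The summed inhibitors were at 110, 120 and 107 CPM in the parental libraries and 86.7, 81.9 and 91.3 CPM in MDA231-LN. SPINT2 made up most of that sum, on average 111 of 112 CPM in the parental line and 76.6 of 86.7 CPM in MDA231-LN. The sum was thus lower in MDA231-LN despite the rise of SPINT1. PRSS8 had 0 fragments throughout, so the protease side of the next ratio was ST14 alone, at 13 to 41 fragments a library. The log2 ratio of inhibitors to proteases (CPM plus 0.1) was 5.58, 6.59 and 5.55 in the parental line and 6.82, 5.79 and 6.63 in MDA231-LN. The libraries overlapped, and the difference of 0.50 had p = 0.2 by an exact two-sided permutation test whose smallest possible p is 0.1. This difference in inhibitor to protease log ratio was 0.31 with a pseudocount of 0.5 CPM. Leaving out 1 library gave 0.30 (without MDA231-LN replicate 1) to 0.85 (without parental replicate 2), with 0.32 without parental replicate 3 and 0.82 without MDA231-LN replicate 2.

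Among 25 other membrane serine proteases and inhibitors, 10 were tested. Of these, 3 rose and 3 fell (31.6% and 31.2% of all tested genes did), with a median log2 fold change of -0.22. TMPRSS15, which encodes enteropeptidase, had 215 fragments in the parental line and 0 in MDA231-LN, at least 80.3-fold lower against a floor of 3 fragments over the 3 libraries; set at that bound the median is the same. PRSS22 fell 5.62-fold (5.07 ± 0.941 to 0.898 ± 0.446 CPM). TMPRSS6, matriptase-2, rose 7.18-fold (0.529 ± 0.329 to 3.74 ± 1 CPM), and SERPINE2, a secreted serine protease inhibitor, rose 2.53-fold (23.2 ± 0.931 to 58.8 ± 2.21 CPM). TMPRSS9 rose and SERPINB1 fell as well, both named after their values were seen. Of 17 matriptase substrates and genes of the hepatocyte growth factor axis, 12 were tested. Against the same 31.6% and 31.2% of all tested genes, 3 rose and 5 fell (median log2 fold change -0.24). With upper-quartile scaling 4 rose. F2RL1, the protease-activated receptor that matriptase can cleave, fell 3.31-fold (458 ± 23.6 to 138 ± 9.85 CPM). MST1R, the receptor of macrophage-stimulating protein, fell 2.43-fold (18.9 ± 2.86 to 7.77 ± 0.716 CPM). PLAUR, the urokinase receptor, rose 1.96-fold (63.7 ± 3.52 to 125 ± 7.66 CPM). Also past the threshold, and named after their values were seen, CDCP1 and PDGFD fell, and PDGFC and HGFAC rose, HGFAC from 2 to 51 fragments. MET, also named after its value was seen, was at 213 ± 11 and 212 ± 5.08 CPM and did not pass, and HGF had 0 fragments in all libraries.

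RAB25 (ENSG00000132698, chromosome 1 from 156061160 to 156070504, plus strand) had 0, 2 and 1 fragments in parental cells and 3, 0 and 0 in MDA231-LN. No annotated gene overlaps it. The ratio of 0.892 had a 95% counting interval of 0.119 to 6.66, so no difference was detectable at this depth. Of 20 other genes of RAB11-dependent recycling, 19 were tested. Of these, 7 rose and 11 fell (31.6% and 31.2% of all tested genes did), with a median log2 fold change of -0.40. MYO5B, the motor that carries RAB11 vesicles, had 821 fragments in MDA231-LN and 4 in the parental line, all in replicate 3, without which that line was at 0. The count ratio was 183 (95% counting interval 71.2 to 674), and 49.3% of the MYO5B exonic bases are shared with another gene. RAB17, a GTPase of polarised epithelia, fell 11.6-fold (3.12 ± 0.507 to 0.262 ± 0.133 CPM). CLIC3, which works with RAB25 in integrin recycling, fell 2.87-fold (3.23 ± 1.22 to 1.13 ± 0.133 CPM), and RAB11B fell 1.92-fold (202 ± 15.8 to 105 ± 7.95 CPM).

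Of 30 genes of junctions, polarity, keratins and other epithelial functions, 24 were tested; 10 rose and 10 fell (31.6% and 31.2% of all tested genes did), with a median log2 fold change of 0.086; upper-quartile scaling gave 11 and 9. MAL2, a protein of apical transport, rose with a log2 fold change of 3.40 ± 0.43 (0.36 ± 0.263 to 3.97 ± 1.08 CPM, and 4.14 without parental replicate 3; 75.3% of its exonic bases lie inside another gene). CDS1, a lipid enzyme, rose 6.04-fold (0.582 ± 0.266 to 3.5 ± 0.715 CPM). MAPK13, a p38 kinase, fell 9.46-fold (137 ± 6.52 to 14.5 ± 1.54 CPM). CLDN7, a claudin, fell 4.28-fold (8.47 ± 1.61 to 1.97 ± 0.524 CPM) and shares 52.7% of its exonic bases with another gene. CDH1 had 11 parental and 24 MDA231-LN fragments and was not tested.

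**Figure D4:**
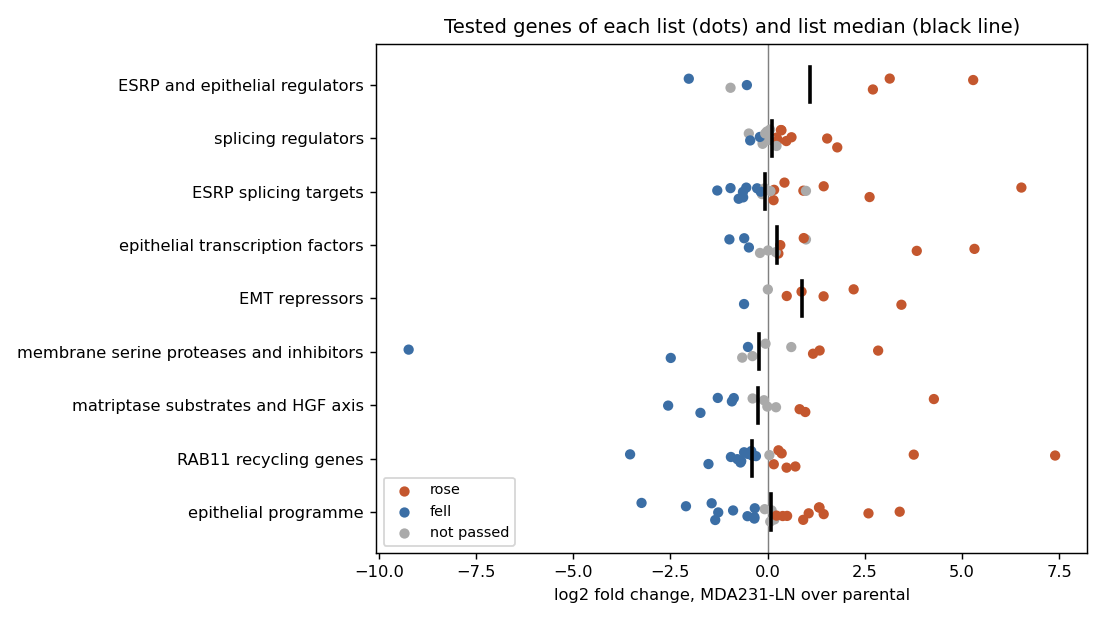
Log2 fold change (horizontal axis) of every tested gene in the 8 lists and among the ESRP and epithelial regulators, coloured by whether it rose, fell or did not pass, with the median of each list as a black line. The lists scatter on both sides of 0; the gene at the far left is TMPRSS15, with 0 fragments in MDA231-LN, whose fitted value is no estimate of size.

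Per kilobase of exon, SPINT2 stood first in both lines (21.3 ± 1.18 CPM per kilobase parental and 14.7 ± 0.815 in MDA231-LN). In the parental line ESRP2 came next (2.02 ± 0.184), then SPINT1 (0.437 ± 0.118) and ST14 (0.424 ± 0.14), which overlapped each other, and the remaining 6 were under 0.1 in every library and overlapped from one to the next. In MDA231-LN SPINT1 came next (2.85 ± 0.187), then ESRP1 (0.845 ± 0.178), OVOL2 (0.501 ± 0.202) and ESRP2 (0.495 ± 0.251), each overlapping its neighbour, and then ST14 (0.22 ± 0.0871), which lay below ESRP2 without overlap. By this measure ESRP2 went from rank 2 to 5. ESRP1 went from rank 8, where it overlapped both neighbours, to rank 3, where it overlapped OVOL2 and not SPINT1. The counts include introns, so the order depends on the length used. Per kilobase of gene span, MDA231-LN had 0.304 CPM for ESRP2, 0.0621 for ESRP1, 0.0189 for ST14 and 0.0107 for OVOL2. On that length ESRP2 stood above ESRP1, and ST14 above OVOL2, in MDA231-LN.

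ESRP1, ESRP2, OVOL2, SPINT1 and SPINT2 lay away from the median of the tested genes around them, whereas ST14 did not. Among tested genes within 5 Mb of ESRP1, 18 of 41 rose and 5 fell, their median log2 fold change was 0.18, and none was as high as ESRP1. Around ESRP2, 22 of 97 rose and 21 fell, and 3 were lower than it. Around OVOL2, 6 of 28 rose and 13 fell, and 1 was higher than it; around SPINT1, 25 of 89 rose and 15 fell, and 1 was higher. SPINT2 fell in a stretch where 104 of 155 genes rose and 4 fell (median 0.63), and 6 genes were lower than it. ST14 lies where 28 of 41 genes fell (median -0.95), and its own value of -0.95 was at that median. RAB25, without enough counts of its own, lies where 113 of 141 genes fell (median -0.92). Beside these counts, 31.6% of all tested genes rose and 31.2% fell.

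**Figure D5:**
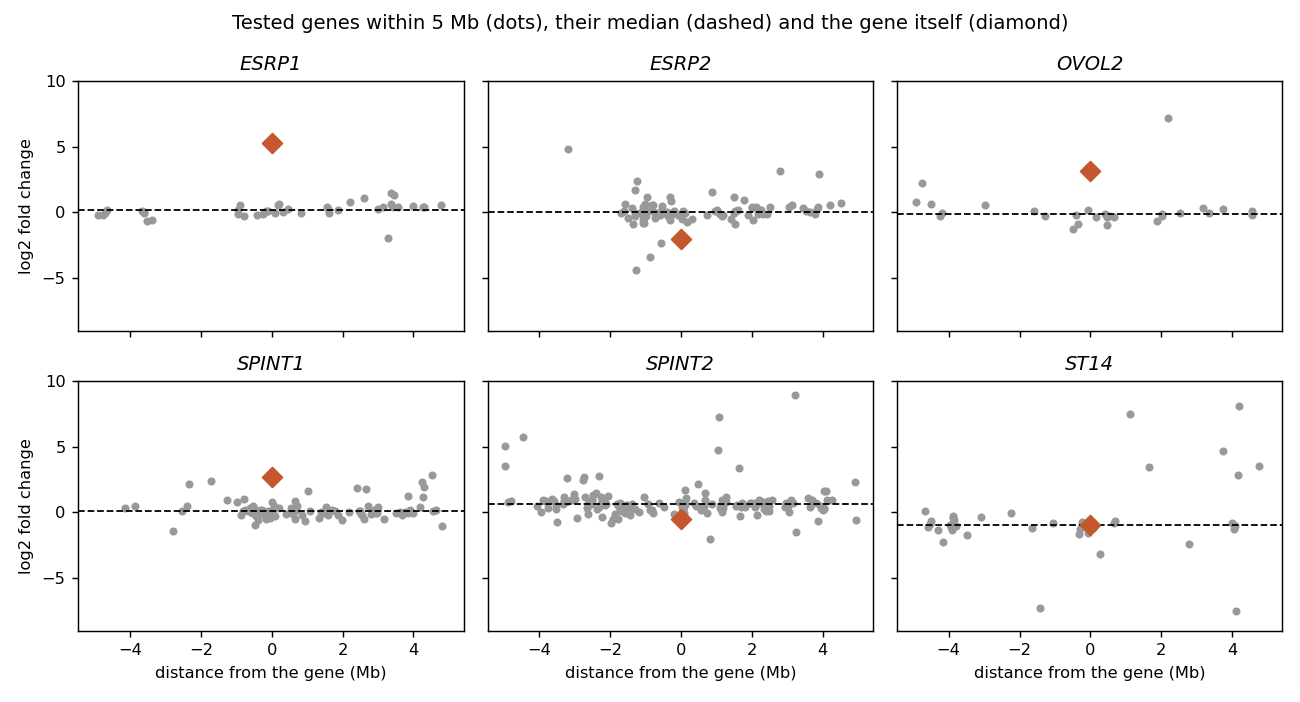
Log2 fold change of tested genes (grey dots) against their distance in Mb from each of 6 tested genes (orange diamond), with the median of the neighbours dashed. ESRP1, OVOL2 and SPINT1 stand above and ESRP2 below most of their neighbours, SPINT2 lies below a raised neighbourhood, and ST14 sits on the median of a lowered one.

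The bases before the start site could be read for 3 of the 10 genes in the RefSeq table for GRCh38.p14 (SPINT1, ELF3 and RAB25; not for ESRP1, ESRP2, GRHL2, OVOL2, ST14, PRSS8 and SPINT2). SPINT1, which rose, and RAB25, near 0 in both lines, are shown because their promoters differ in CpG content. The sequences run 5′ to 3′ on the plus strand up to the base before the annotated gene, chr15:40843798-40844017 for SPINT1 and chr1:156060910-156061159 for RAB25, with CpG dinucleotides in capitals.
SPINT1: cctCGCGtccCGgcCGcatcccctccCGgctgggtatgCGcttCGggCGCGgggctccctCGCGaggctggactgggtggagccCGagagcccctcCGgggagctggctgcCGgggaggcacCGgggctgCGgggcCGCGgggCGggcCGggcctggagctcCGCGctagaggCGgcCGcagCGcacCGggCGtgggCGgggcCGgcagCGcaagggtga
RAB25: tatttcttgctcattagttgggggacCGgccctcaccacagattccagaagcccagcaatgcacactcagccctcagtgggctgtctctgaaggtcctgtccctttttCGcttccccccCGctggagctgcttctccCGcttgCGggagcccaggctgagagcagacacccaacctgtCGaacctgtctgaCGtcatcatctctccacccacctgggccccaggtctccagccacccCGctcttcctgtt
The SPINT1 stretch holds 30 CpGs in 220 bases (13.6 per 100 bases) and the RAB25 stretch 8 in 250 bases (3.2 per 100 bases). Over the windows of 300 bases, 250 before and 50 after the start, SPINT1 had 38 CpGs at this start and 25 at a second one, RAB25 9 and ELF3 7, against a median of 14 over 35116 promoters. The E-box CACCTG, searched on both strands, was present in the windows of RAB25, ELF3 and the second SPINT1 start and not at the first, and in 20.6% of all promoters. The Grainyhead core AACCGG (7.23% of promoters) and the OVOL motif CCGTTA (3.07%) were in none of these windows. These are matches of letters, not sites of binding.

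The protein-coding genes with levels most like 4 of these genes across the 6 libraries, by the root mean square difference of log2 CPM, had these values. GNG2 (0.30) and AKR1B10 (0.42) were nearest to ESRP1; GNG2 went from 0.0829 ± 0.0718 to 4.93 ± 0.535 CPM and AKR1B10 from 0.144 ± 0.153 to 5.59 ± 0.535 CPM. PDE2A (0.24) and KCTD14 (0.31) were nearest to ESRP2, both on chromosome 11; PDE2A went from 11 ± 0.906 to 2.9 ± 0.686 CPM. AIM2 (0.20) and NFATC4 (0.22) were nearest to SPINT1; AIM2 went from 1.4 ± 0.437 to 9.47 ± 0.797 CPM. PCIF1 (0.044) and ETV5 (0.063) were nearest to SPINT2; PCIF1 went from 109 ± 8.55 to 77.6 ± 5.98 CPM. The likeness is over 6 libraries of 2 lines.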

How the data were processed

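Total RNA from 3 libraries of each line was sequenced from both ends, per the labels' protocols. The submitters' processing notes name STAR (version not given in the sources used here) and GRCh38. The deposited values are raw counts per gene. Per the file headers, the authors ran featureCounts 2.0.1 with the annotation of Ensembl release 105 over whole gene spans, introns included. No strand option was set; by that tool's default settings, fragments over more than 1 gene or place are left out. Genes inside other genes can therefore be listed with few counts while expressed.

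Symbols matched 61369 genes (99.7%). The counts were tested with edgeR 4.0.16 (R 4.3.3), TMM scaling and filterByExpr. CPM used TMM-scaled sizes. Exonic lengths and biotypes came from GENCODE 29. Count ratios have exact conditional binomial 95% intervals; they and the floor of 3 counts cover counting error only (without molecular identifiers, reads can be copies). Libraries of a line differed beyond sampling noise (chi-square per degree of freedom 3.87 to 8.91). The test was tested on simulated data.

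The genes and lists were chosen with earlier results of these data known. Named were the 10 genes, up to 4 genes per list with the greatest log2 change in size, taken from those past the threshold at a mean of at least 1 CPM, and the 2 nearest genes to each called gene of the 10 with that mean. A few listed genes are not reported here. Alternatives were scaling by RLE or upper quartile, filtering at 1 CPM in 3 libraries or not at all, each library left out, a replicate block, DESeq2 1.42.0, limma-voom (limma 3.58.1), an adjusted p under 0.01, a pseudocount of 0.5 CPM, neighbours within 2 Mb and bases before the start only. Leaving out genes with over 50% of exonic bases inside another gene was chosen after seeing the data. Python 3.11.15 with matplotlib 3.10.9, scipy 1.17.1, pandas 2.3.3 and numpy 2.4.6 did the rest.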

Additional observations from a re-analysis of the deposited data

How the results depend on the processing

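Of the 46 tested genes named by the rule, 45 kept their direction and call under every alternative in which they were fitted, and ST14 kept its direction. The rule took list genes already past the threshold with the largest changes in these same data, so this count is no measure of robustness. ENAH, KHDRBS3 and KLF4, named outside the rule, lost their calls under some alternatives. Of the 10, 3 rose under all alternatives but the 1 CPM filter, which left OVOL2 untested and gave 2. The count of 2 that fell was 3, with ST14, under that filter, limma-voom and without replicate 2 of either line, and 1 once genes largely inside others (SPINT2 among them) were left out. The fall count of 2 among splicing regulators was 1 with upper-quartile scaling or an adjusted p under 0.01, and 1 to 4 when 1 library was left out, the ends being without MDA231-LN replicate 1 (1) and parental replicate 1 (4). With no filter 5 genes of the list of membrane serine proteases and inhibitors rose in place of 3. The ESRP1 to ESRP2 log ratio differed by 4.86 in place of 6.58 with a pseudocount of 0.5 CPM. In the neighbourhood of ELF3, median log2 fold change turned from -0.066 to 0.093 within 2 Mb. With upper-quartile scaling the median over tested genes was 0.13 in place of 0.017 (log2). The replicate block gave 4325 genes up and 4266 down, against 4482 and 4422, and the same 3 and 2 of the 10. Same-numbered libraries of the lines did not deviate together (correlations -0.0526 to 0.00241, against -0.0437 to 0.0457 for differently numbered ones). Whether same-numbered libraries were prepared together cannot be told from these values. Depth limits GRHL2, RAB25, PRSS8 and ELF3, with at most 25 fragments in a line.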
